A study of Rattus norvegicus with 15 samples.

Results

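The 10 genes described here encode matrix proteins that lie directly around the cells of fat: the 3 chains of type VI collagen (Col6a1, Col6a2 and Col6a3) and 7 components of the pericellular basement membrane (Col4a1, Col4a2, Col15a1, Col18a1, Nid1, Lamb1 and Lamc1). They were chosen by name, through probe sets whose platform annotation gave 1 of these genes and no other. All 10 were found, by 17 of 31099 probe sets, out of 14217 genes so named, and all 17 probe sets passed the filter on low signals. The tissue was epididymal fat, the visceral depot beside the testis, of male Long-Evans rats aged 26 weeks and killed in the fed state, and each rat's RNA went onto its own Affymetrix RAE230_2 array. The diet-induced obese group was 7 rats given a diet high in fat and sucrose from weaning, and the control lean group was 8 rats given regular chow. Diet and obesity went together, so their parts cannot be told apart. The rats were an outbred stock from a private colony, and the labels name no added allele or agent in either group.

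The values are MAS5 signals, the brightness that the Affymetrix program of that name assigns to a probe set, on a linear scale. The fat cell genes Adipoq, Plin1 and Fabp4 had mean signals of 54123, 53793 and 139774 in the 7 obese rats and 57349, 58167 and 140838 in the 8 lean rats, so the defining markers of the labelled tissue were present. Obese rat 1 and lean rat 7 gave nearly the same array although they carry opposite labels. Over the probe sets tested they correlated at 0.986, where the next highest of the 105 pairs of arrays reached 0.960, and over the brightest probe sets of the 10 genes they differed by at most 0.10 on the log2 scale. Results are therefore given with the 13 arrays that remain without this pair, 6 obese and 7 lean, and many also with all 15. A group difference given without a set of arrays comes from the 13. The Gapdh control signal of the 3 prime end over that of the 5 prime end, which is higher in more degraded RNA, was measured too. In the 6 obese rats of the 13 its log2 value averaged 0.72 ± 0.28 (SD), and in the 7 lean rats 1.05 ± 0.28 (SD; two-sided exact permutation test, p = 0.0589). Over all 15 arrays it averaged 0.77 ± 0.28 in the 7 obese and 1.05 ± 0.26 in the 8 lean rats (SD; two-sided exact permutation test, p = 0.0746).

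Each fat cell is wrapped in a basement membrane, a thin sheet in which a network of type IV collagen and a network of laminin are joined by nidogen. Type VI collagen forms beaded filaments just outside that sheet, and its α1, α2 and α3 chains, the products of Col6a1, Col6a2 and Col6a3, assemble with each other before secretion. Fat is rich in type VI collagen, and in mice it has been studied as part of the shell that limits how far fat cells can enlarge. The tissue also holds vessel walls, whose endothelial and mural cells make basement membranes of their own. In whole tissue, fewer cells of a type and less RNA per cell cannot be told apart.

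In obese fat the 3 type VI genes had higher mean signals than in lean fat, and Col6a2 was the 1 member that passed the test, with 13 arrays and not with 15. None of the 7 basement membrane genes passed in either set of arrays. The obese minus lean difference was taken on the scale log2(signal + 79.9), by the brightest probe set of each gene. With 13 arrays its median was 0.47 over the type VI genes and 0.10 over the basement membrane genes. Over all 18625 probe sets tested the median was -0.04. With all 15 arrays these medians were 0.41, 0.10 and -0.04. Under quantile normalization the basement membrane median was -0.028 with 13 arrays and -0.013 with 15, and the type VI median kept its sign. Averaging a gene's probe sets moved the basement membrane median to 0.24 with 13 arrays. By dimmer probe sets and 13 arrays, 5 basement membrane genes had differences of 0.24 to 0.56, and Col6a2 and Col6a3 had 0.43 and 0.27. The contrast of type VI with basement membrane genes was thus seen on the brightest probe sets and not on the dimmer ones. Groups were compared by limma with Benjamini-Hochberg adjustment over the 18625 probe sets tested and a threshold of 0.05. By brightest probe sets, 1 of 10 members was called with 13 arrays. Of all probe sets 1.01% were called in either direction and 0.725% called higher. With 15 arrays 0 of 10 were called, beside 0% of probe sets. Of the members' 17 probe sets, 1 was called with 13 arrays and 0 with 15. The members' brightest probe sets lay at the 93rd to 99th percentile of mean signal. At an unadjusted p under 0.05, 4 of 10 members were higher and 0 lower in both sets of arrays. Of all probe sets 7.59% were higher and 10.2% lower at that p with 13 arrays, and 6.74% and 8.82% with 15. Those 4 were the type VI genes and Col4a1. Of the members' 17 probe sets, 8 were higher at that p with 13 arrays and 7 with 15, and 0 were lower.

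**Figure D1:**
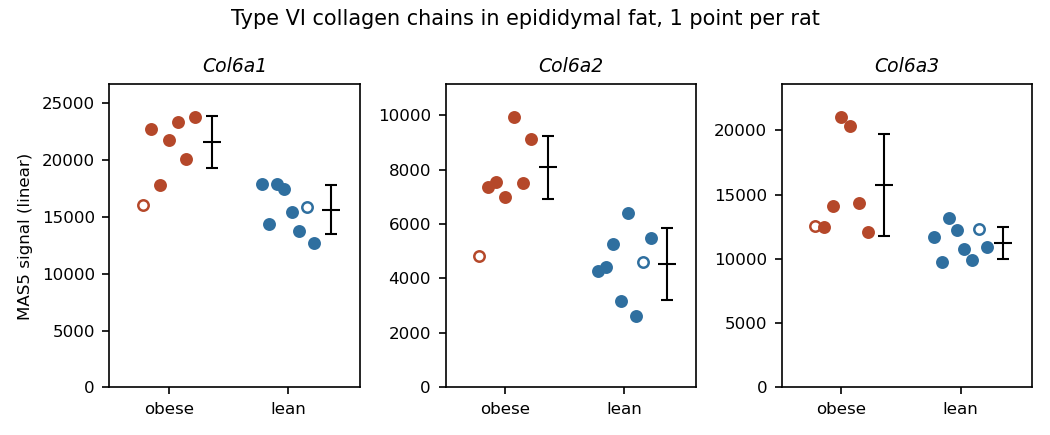
MAS5 signal (linear axis from 0) of the brightest probe set of Col6a1, Col6a2 and Col6a3 in each rat, obese in red and lean in blue, with mean and SD of 6 obese and 7 lean rats in black. Open points are obese rat 1 and lean rat 7. The 6 filled obese points of Col6a2 lie between 6977 and 9929, above the highest filled lean point at 6403, while the open obese point lies among the lean rats.

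Col6a2 (Entrez gene 361821, chr20:12021182-12048932 in the GRCr8 assembly), which encodes the α2 chain, changed most among the members. Its signal ran from 6977 through a median of 7532 to 9929 in the 6 obese rats, against 2634 through 4421 to 6403 in the 7 lean rats. Each of the 6 obese rats exceeded every one of the 7 lean rats, as they did for 0.918% of the probe sets tested. The difference was 0.87 ± 0.18 on the log2 scale (SE; limma adjusted p = 0.0399), or 1.83-fold. Obese rat 1, at 4832, and lean rat 7, at 4603, both fell inside the lean range, and with 15 arrays the difference was 0.76 ± 0.18 (SE; limma adjusted p = 0.103). The call was narrow: from the 13 arrays, leaving out 1 more rat kept it in 4 of 13 cases, with adjusted p from 0.041 to 0.0966 and differences from 0.75 to 0.96. With the Gapdh value as a covariate the Col6a2 difference was 0.58 (limma adjusted p = 0.183). A dimmer probe set of Col6a2 had a difference of 0.43 ± 0.18 (SE; limma adjusted p = 0.221), with 2 of 6 obese rats above every lean rat. With 15 arrays that probe set had 0.34 ± 0.20 (SE; limma adjusted p = 0.418).

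Col6a1 (Entrez gene 294337, chr20:11905690-11924111), for the α1 chain, lies on the same chromosome as Col6a2, whose annotated span begins 97071 bases past the end of Col6a1. Its signal ran from 17810 through 22252 to 23780 in obese rats and from 12699 through 15430 to 17903 in lean rats of the 13. Obese rat 3 was the 1 obese rat below the top lean rat, and the other 5 exceeded all lean rats. The difference of 0.47 ± 0.11 missed the threshold (SE; limma adjusted p = 0.0611), and it passed in 7 of 12 other settings, with adjusted p from 0.0264 to 0.208 over them. With the Gapdh value as a covariate it was 0.47 (limma adjusted p = 0.175), and with 15 arrays 0.41 ± 0.11 (SE; limma adjusted p = 0.118).

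Col6a3 (Entrez gene 367313, chr9:98809171-98887060) encodes the long α3 chain, whose C-terminal end is released as the fragment endotrophin. Obese rats ran from 12091 through 14241 to 21043 and lean rats from 9766 through 10912 to 13199, and 4 of 6 obese rats exceeded all lean rats. Obese rats 5 and 6, at 21043 and 20374, stood above the other obese rats, which reached 14384. The difference was 0.46 ± 0.14 (SE; limma adjusted p = 0.12), with a 95% interval of 0.15 to 0.76, and 0.40 ± 0.13 with 15 arrays (SE; limma adjusted p = 0.168). With the Gapdh value as a covariate and 13 arrays it was 0.54 (limma adjusted p = 0.193). Its dimmer probe set had 0.27 ± 0.20 (SE; limma adjusted p = 0.513). The differences of Col6a2 and its partner chains were themselves compared rat by rat, as part of 10 such exact tests added after the data were seen. The obese minus lean difference of Col6a2 exceeded that of Col6a1 by 0.40 and that of Col6a3 by 0.41 with 13 arrays (two-sided exact permutation test, p = 0.0921 and 0.105, or 0.21 for each after adjustment), so unequal change of the 3 chains was not shown.

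The 300 bases around the annotated starts of Col6a1 and Col6a3 are printed because these chains had similar differences, 0.47 and 0.46. They come from RefSeq in GRCr8 and run 5′ to 3′ on the strand of the gene, 250 bases before and 50 bases after the start that RefSeq's table uses, and no entry was found for Col6a2. Col6a1 is on the plus strand at chr20:11905440-11905739 and Col6a3 on the minus strand at chr9:98886909-98887208. For Col6a3 the start used lies inside the gene's annotated span and not at the end of that span, 98887060. Capitals would mark GGGCGG or CCAAT on either strand (CCGCCC or ATTGG on the printed strand), and neither window holds any.
Col6a1: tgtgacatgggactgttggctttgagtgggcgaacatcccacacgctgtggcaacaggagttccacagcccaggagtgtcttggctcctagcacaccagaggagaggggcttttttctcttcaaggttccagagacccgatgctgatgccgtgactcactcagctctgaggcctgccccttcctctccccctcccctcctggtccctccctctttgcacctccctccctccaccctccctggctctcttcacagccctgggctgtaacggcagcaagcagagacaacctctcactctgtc
Col6a3: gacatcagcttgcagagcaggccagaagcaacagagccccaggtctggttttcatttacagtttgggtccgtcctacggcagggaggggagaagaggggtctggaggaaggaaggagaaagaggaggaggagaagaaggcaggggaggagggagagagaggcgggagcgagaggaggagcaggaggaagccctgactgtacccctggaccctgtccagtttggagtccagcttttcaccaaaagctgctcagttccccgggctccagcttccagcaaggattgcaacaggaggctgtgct
TATAAA was not found on either strand of these windows. Both have a low density of CpG dinucleotides, at 0.198 and 0.209 of the number that their base composition predicts, with G or C at 59.7% and 58.7% of bases. These are descriptions of the letters in the windows and say nothing of which factors act there.

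Type IV collagen is the main network of the basement membrane, and its common form is built from α1 and α2 chains, the products of Col4a1 and Col4a2. These genes stand head to head on chromosome 16: Col4a2 (Entrez gene 306628, chr16:84749672-84885520) starts on the minus strand 77 bases from the start of Col4a1 (Entrez gene 290905, chr16:84885597-84996482) on the plus strand. The window of Col4a1 therefore holds both starts. It is shown at chr16:84885347-84885646, plus strand, with the same 2 motifs in capitals. Col4a2 starts at base 174 of the window and is read leftward, and Col4a1 starts at base 251 and is read rightward.
Col4a1 and Col4a2: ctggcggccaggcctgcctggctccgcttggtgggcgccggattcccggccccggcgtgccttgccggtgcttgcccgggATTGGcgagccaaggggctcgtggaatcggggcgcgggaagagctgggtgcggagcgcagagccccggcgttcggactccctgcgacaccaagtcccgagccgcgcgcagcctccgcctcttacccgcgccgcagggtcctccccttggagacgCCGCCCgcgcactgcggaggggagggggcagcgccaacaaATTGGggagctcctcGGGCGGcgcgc
GC bases make up 75.0% of this window, and CpG dinucleotides occur at 0.902 of the predicted number. CCAAT is found 2 times, as ATTGG from bases 81 and 275, and GGGCGG 2 times, as CCGCCC from base 235, between the starts, and as GGGCGG from base 290. Among 33469 RefSeq promoter windows of this length, 37.5% hold CCAAT, 33.1% hold GGGCGG and 14.2% hold TATAAA on either strand. Of the 9 members with a window, 3 hold CCAAT, 6 hold GGGCGG and 0 hold TATAAA, and the windows of Col4a1 and Col4a2 share 176 bases, so their matches are not independent.

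The obese minus lean differences of these partner genes were 0.23 ± 0.11 for Col4a1 and 0.10 ± 0.20 for Col4a2 with 13 arrays (SE; limma adjusted p = 0.273 and 0.83). Col4a1 ran from 28146 through 32850 to 38779 in obese rats and from 24546 through 27950 to 32657 in lean rats, and 4 of 6 obese rats were above all lean rats. Col4a2 ran from 14104 through 20031 to 37737 in obese rats and from 16626 through 19525 to 26999 in lean rats. The obese rats thus held both the highest and the lowest Col4a2 signal, in rats 3 and 8. Without obese rat 3 the difference of Col4a2 was -0.06 with 13 arrays and -0.03 with 15. With the Gapdh value as a covariate and obese rat 3 kept, Col4a2 had 0.38 with 13 arrays and 0.31 with 15 (limma adjusted p = 0.407 and 0.522), and Col4a1 had 0.33 and 0.27 (limma adjusted p = 0.251 and 0.411). The difference of Col4a1 minus that of Col4a2 was 0.13 (two-sided exact permutation test, p = 0.416 and 0.462 after adjustment).

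From rat to rat within the obese group, Col4a1 and Col4a2 varied alike, with Pearson's r of 0.90 and Spearman's rho of 0.89 over 6 rats. The exact two-sided permutation p was 0.0181 and 0.0333, and the adjusted p was 0.253 and 0.467 over 14 relations, so neither passed. Leaving out the 2 rats farthest from the median of Col4a1 gave an r of 0.93. Within the 7 lean rats r was 0.59 and rho 0.32 (exact permutation p = 0.172 and 0.498, adjusted p = 0.482 and 0.922). The other 6 partner pairs, among them the type VI chains and Lamb1 with Lamc1, had r from -0.0018 to 0.78 and none passed either (adjusted p of Pearson's r from 0.269 to 0.995). Col6a1 and Col6a3, for example, had r of 0.09 in obese rats and 0.78 in lean rats (exact permutation p = 0.886 and 0.051, adjusted p = 0.978 and 0.269). Leaving out 2 rats in the same way moved other pairs widely. In obese rats r went from 0.52 to 0.86 for Col6a1 with Col6a2 and from 0.71 to -0.90 for Lamb1 with Lamc1. In lean rats Lamb1 with Lamc1 went from 0.22 to -0.83. So few rats remain that this step, for Col4a1 with Col4a2 too, says little.

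**Figure D2:**
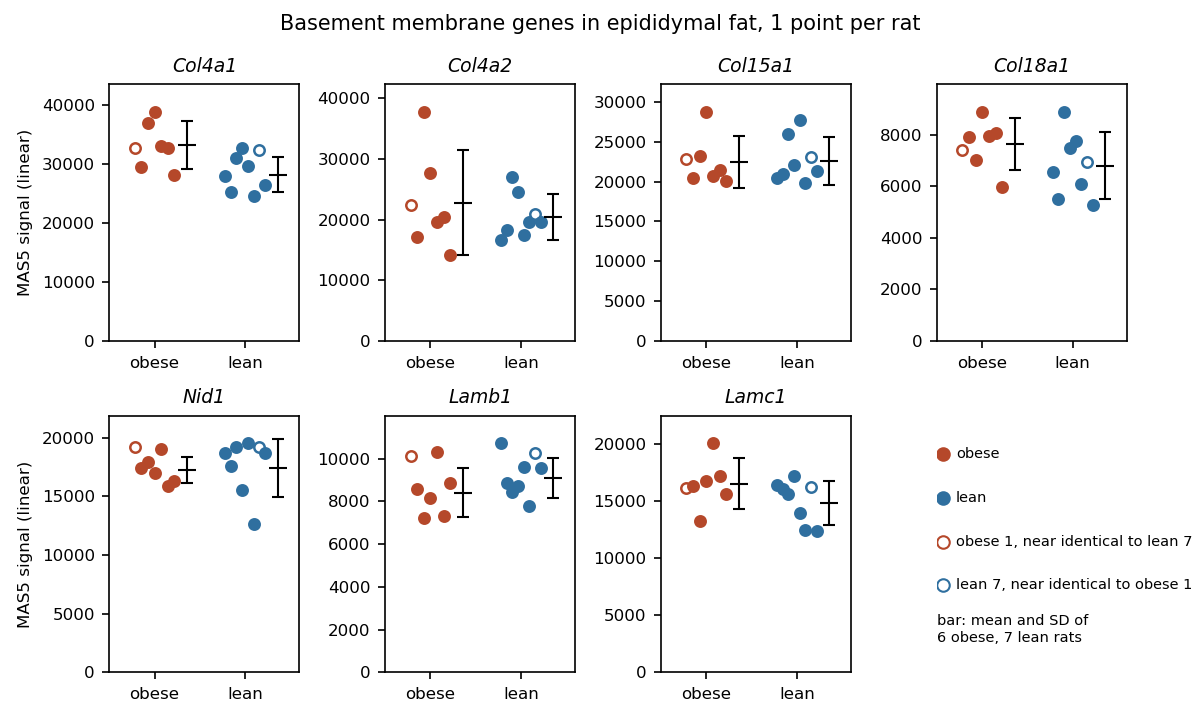
MAS5 signal (linear axes from 0) of the brightest probe set of each of the 7 basement membrane genes in each rat, obese in red and lean in blue, with mean and SD of 6 obese and 7 lean rats in black and obese rat 1 and lean rat 7 as open points. The groups overlap in every panel, and the obese Col4a2 points spread most, from 14104 to 37737.

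Nid1 and the laminin genes did not pass, and their groups overlapped. Nid1 (Entrez gene 25494, chr17:93069013-93142416) encodes nidogen 1, which bridges laminin and type IV collagen. It ran from 15923 through 17170 to 19022 in obese rats and from 12646 through 18655 to 19506 in lean rats, and its difference was -0.000077 with 13 arrays (limma adjusted p = 1), with a 95% interval of -0.24 to 0.24. Lamb1 (Entrez gene 298941, chr6:53562849-53630118) and Lamc1 (Entrez gene 117036, chr13:67924872-68051986) encode the β1 and γ1 chains shared by several laminins. Lamb1 ran from 7222 through 8391 to 10315 in obese rats and from 7778 through 8858 to 10712 in lean rats, a difference of -0.12 ± 0.11 (SE; limma adjusted p = 0.612). Lamc1 ran from 13277 through 16572 to 20080 in obese rats and from 12388 through 15623 to 17219 in lean rats, a difference of 0.15 ± 0.12 (SE; limma adjusted p = 0.524). With 15 arrays Nid1, Lamb1 and Lamc1 had 0.0027, -0.10 and 0.13 (limma adjusted p = 0.992, 0.674 and 0.555). The intervals of Lamb1 and Lamc1 with 13 arrays, -0.35 to 0.11 and -0.10 to 0.40, still allow changes of such sizes.

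Col15a1 and Col18a1 encode types XV and XVIII collagen, which carry heparan or chondroitin sulfate chains and sit at the edge of basement membranes, and endostatin is cut from the end of type XVIII. Col18a1 (Entrez gene 85251, chr20:11473645-11582111) ran from 5969 through 7920 to 8871 in obese rats and from 5268 through 6556 to 8878 in lean rats. No obese rat exceeded the top lean rat, and the difference was 0.18 ± 0.14 with 13 arrays and 0.17 ± 0.12 with 15 (SE; limma adjusted p = 0.524 and 0.516). Its dimmer probe set had 0.29 ± 0.14 (SE; limma adjusted p = 0.3). For Col15a1 (Entrez gene 298069, chr5:66297546-66403172) the answer depended on the probe set. The brighter, 1388939_at, ran from 20087 through 21064 to 28727 in obese rats and from 19798 through 21258 to 27658 in lean rats, a difference of -0.01 ± 0.12 (SE; limma adjusted p = 0.974). The dimmer, 1379345_at, ran from 10157 through 12046 to 13118 in obese rats and from 6139 through 8064 to 9850 in lean rats. The 6 obese rats were all above the 7 lean rats there, and the difference of 0.56 ± 0.13 missed the threshold (SE; limma adjusted p = 0.0585).

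Obese rat 1 and lean rat 7, at 12201 and 11872 on that probe set, both fell inside the obese range, which is the reverse of their place for Col6a2. With all 15 arrays the difference was 0.49 ± 0.13 (SE; limma adjusted p = 0.117).

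The probe sets of a gene were then compared rat by rat, as the difference of the dimmer minus that of the brighter, for the 7 members that have a pair. These tests were added after the data were seen, so their p-values do not stand apart from what prompted them. In Col15a1 the dimmer exceeded the brighter by 0.57 with 13 arrays (two-sided exact permutation test, p = 0.00175 and 0.00874 after adjustment over the 10 tests) and by 0.50 with 15 (two-sided exact permutation test, p = 0.00233 and 0.0233 after adjustment). For Col4a1 the excess was 0.21 with 13 arrays (two-sided exact permutation test, p = 0.00117 and 0.00874 after adjustment) and 0.17 with 15 (two-sided exact permutation test, p = 0.00466 and 0.0233 after adjustment). The dimmer Col4a1 probe set, 1372439_at, had obese signals of 18803 to 26058 and lean signals of 13730 to 18505, with no overlap, and a difference of 0.44 ± 0.11 (SE; limma adjusted p = 0.079). Lamc1 had an excess of 0.22 (two-sided exact permutation test, p = 0.0396 and 0.132 after adjustment) and its dimmer probe set a difference of 0.38 ± 0.11 (SE; limma adjusted p = 0.0991). In all 5 basement membrane genes with a pair the dimmer probe set had the larger difference, and in both such type VI genes the smaller one. Which transcript each probe set reads was not tested.

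**Figure D3:**
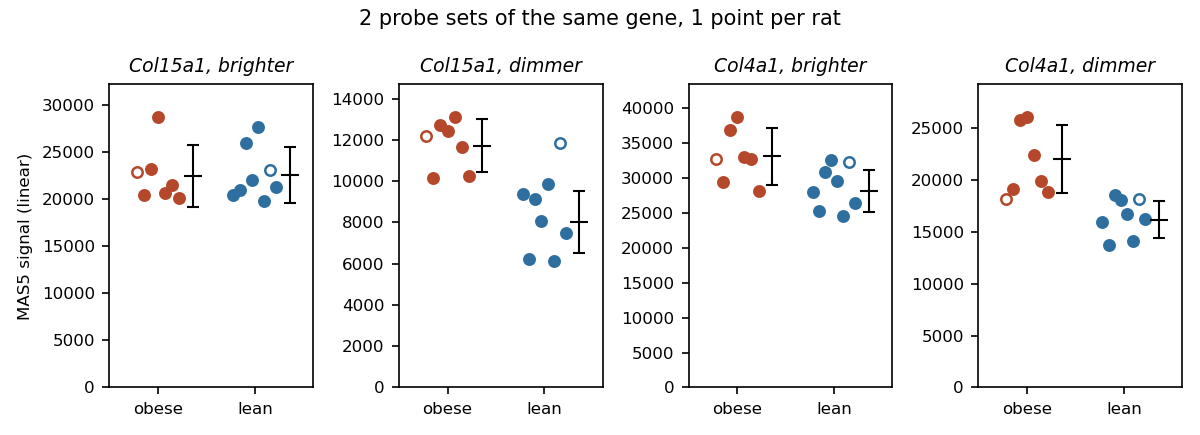
MAS5 signal (linear axes from 0) of the brighter and the dimmer probe set of Col15a1 and of Col4a1 in each rat, obese in red and lean in blue, with mean and SD of 6 obese and 7 lean rats in black and obese rat 1 and lean rat 7 as open points. The filled groups separate on the dimmer probe set of each gene and overlap on the brighter one.

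Over all 12 probe sets of the basement membrane genes the median difference was 0.20 with 13 arrays, against 0.10 over the brightest alone, and 0 of 12 passed. The groups did not overlap on 2 of these 12 and on 1 of the 5 type VI probe sets, beside 0.918% of all probe sets. With 15 arrays 0 of the 17 probe sets had groups apart, beside 0.107% of all.

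**Figure D4:**
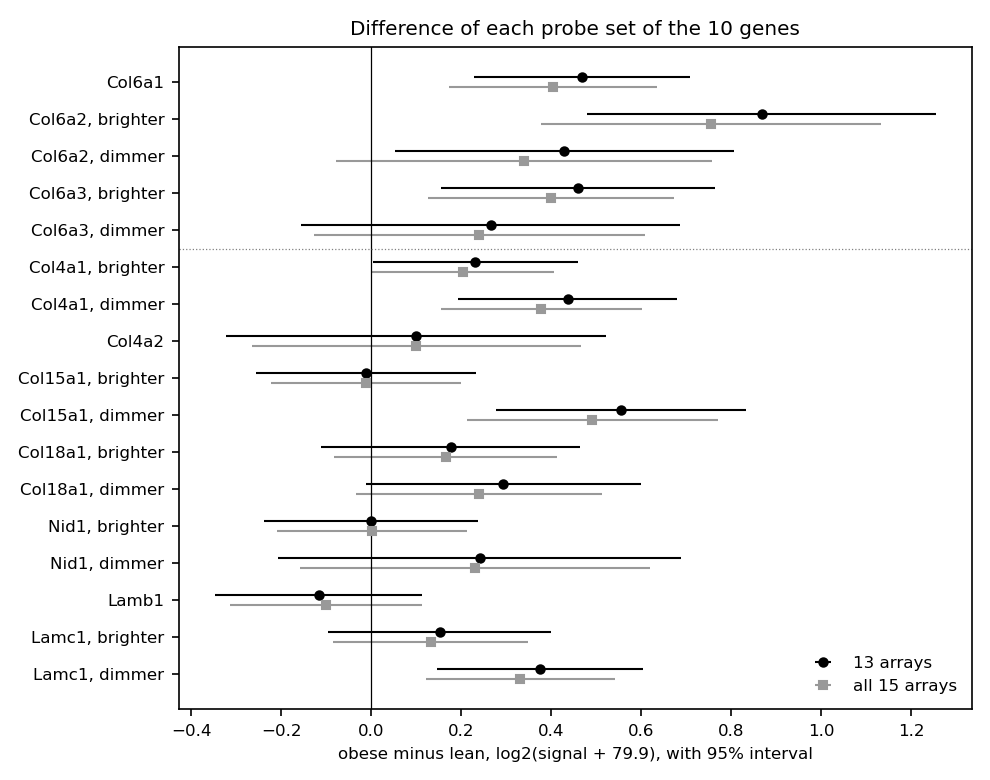
Obese minus lean difference of each of the 17 probe sets on the log2(signal + 79.9) scale with its 95% interval from limma, for 13 arrays (black circles) and all 15 (grey squares), type VI genes above the dotted line. The brightest type VI probe sets lie at 0.46 to 0.87 with 13 arrays and those of the basement membrane genes at -0.12 to 0.23, while the dimmer Col15a1, Col4a1 and Lamc1 probe sets lie at 0.38 to 0.56.

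On the brightest probe set of each gene, the mean over the type VI genes separated the rats by group without the near-identical pair. The mean over the basement membrane genes did not. The dimmer probe sets, with larger differences in the basement membrane genes and smaller ones in the type VI genes, did not enter these means. How often other sets of genes separate the rats was not measured. Relative to the average of 15 arrays, the mean of the 3 type VI genes ran from 0.19 to 0.62 in the 6 obese rats and from -0.61 to -0.01 in the 7 lean rats, with obese rat 1 at -0.13 and lean rat 7 at -0.17. The mean of the 7 basement membrane genes ran from -0.17 to 0.20 in the 6 obese and from -0.25 to 0.14 in the 7 lean rats. Obese rat 6 was highest for type VI collagen and lean rat 6 lowest, and lean rat 6 was also lowest for the basement membrane genes. Obese rat 8 had the lowest basement membrane mean of the obese rats with a type VI mean of 0.34.

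**Figure D5:**
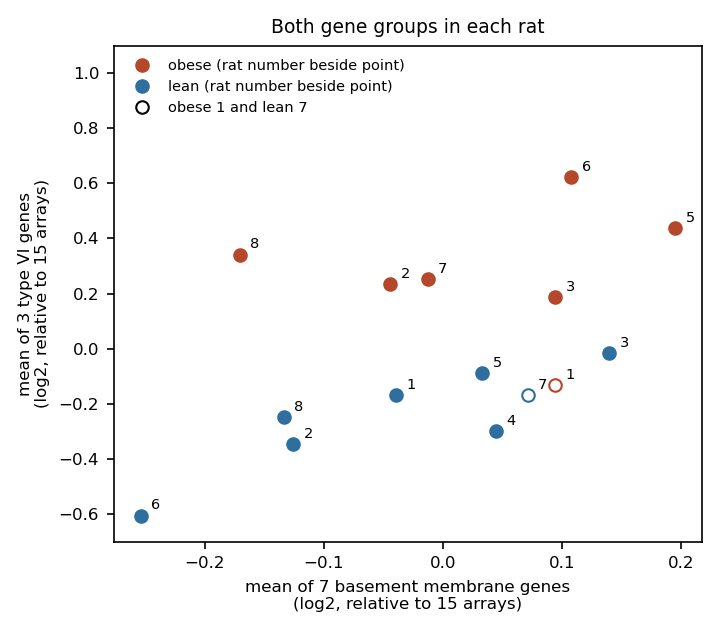
Mean log2 signal of the 3 type VI genes (vertical) against that of the 7 basement membrane genes (horizontal) in each rat, by the brightest probe set of each gene. Values are relative to the average of 15 arrays, obese in red, lean in blue, rat numbers beside the points and obese rat 1 and lean rat 7 open. The filled obese points lie at 0.19 or more on the vertical axis and the lean points at -0.01 or less, and on the horizontal axis the groups overlap.

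After each group's mean was taken off, the genes most like the type VI mean over the 13 arrays, among 10504 other genes, were Postn (r = 0.85), Lrrn4cl (0.85), Anp32b (0.84), Fn1 (0.84) and Prpf4b (0.84). Postn and Fn1 encode periostin and fibronectin, proteins of the matrix around cells. The genes most like the basement membrane mean were Plekhf1 (r = 0.90), U2af2 (0.89), Ino80 (0.85), Postn (0.84) and Adamts12 (0.84). Among the members, Nid1 followed the type VI mean at r = 0.78. Col6a1, Col6a2 and Col6a3, which are part of that mean, followed it at 0.57, 0.75 and 0.67. Each basement membrane gene is part of the basement membrane mean and not of the type VI mean. A closer match to its own mean is therefore partly built in, so these values do not test it. Col4a1, Col4a2, Col15a1 and Col18a1 followed the basement membrane mean more closely than the type VI mean. Nid1, Lamb1 and Lamc1 followed the basement membrane mean less closely, Lamb1 at 0.08 against 0.66. The likenesses of the non-member genes are the highest of many, and all these values describe these 13 arrays only.

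Other genes of the same structures did not pass. Of 27 further basement membrane genes 17 were tested and 0 called; with 13 arrays 7 had a positive difference, beside 42.2% of all probe sets, and the median was -0.02. With 15 arrays 7 of 17 were positive too, beside 42.5%. The laminin α chain gene Lama2 had 0.26 ± 0.11, Lama3 0.28 ± 0.13 and Lama5 -0.25 ± 0.14 (SE; limma adjusted p = 0.217, 0.264 and 0.371). Of the type VI relatives, Col6a5 had -0.65 ± 0.20 and Col6a6 -0.11 ± 0.18 (SE; limma adjusted p = 0.112 and 0.773), signs opposite to the 3 main chains. Col6a5 averaged 2227 ± 547 in the 6 obese and 3605 ± 1036 in the 7 lean rats (SD). Of 13 receptors tested, 0 passed; Antxr1, a receptor known to bind type VI collagen and its fragments, had -0.30 ± 0.13, the laminin receptor Dag1 0.21 ± 0.09 and Cspg4 0.33 ± 0.19 (SE; limma adjusted p = 0.238, 0.263 and 0.366).

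Of 21 tested genes for collagen assembly, 0 passed and 13 were positive with 13 arrays, beside 42.2% of all probe sets positive, with a median of 0.09. Serpinh1, the collagen chaperone HSP47, had 0.49 ± 0.12, P4ha3, a subunit of prolyl hydroxylase, -0.55 ± 0.16, and the prolyl isomerase Ppib 0.30 ± 0.09 (SE; limma adjusted p = 0.06, 0.0991 and 0.12). Among 12 tested proteases and inhibitors, 1 passed with 13 arrays, beside 1.01% of all probe sets called and 0.725% called higher: the inhibitor Timp1 rose by 1.26 ± 0.20 (SE; limma adjusted p = 0.0125). Of 7 fibrillar collagen genes, 1 passed against the same background: Col1a1, of type I collagen, rose by 0.82 ± 0.16 (SE; limma adjusted p = 0.0305), and the median of 0.24 lay between those of the type VI and the basement membrane genes. With 15 arrays 0 members of these lists passed, and Timp1 had 1.07 and Col1a1 0.71.

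Markers of other cells were measured beside these results. All 16 macrophage markers were positive with 13 arrays, with a median of 0.82, and 6 passed, led by Gpnmb, Lgals3, Laptm5, Tyrobp and Itgax. Of all probe sets 42.2% were positive and 0.725% were called higher with 13 arrays, which is the background for all counts of markers that follow too. Their summed signal ran from 144396 to 314074 in the 6 obese and from 82615 to 127043 in the 7 lean rats, and 0 markers lay below the filter. With 15 arrays the sum ran from 110460 to 314074 in obese and from 82615 to 127043 in lean rats, and 0 markers passed. Obese rat 6 was highest for both the macrophage sum and the type VI mean. The macrophages' part in the type VI result was not tested. Of 10 endothelial markers tested, 4 were positive, with sums of 33649 to 41283 in obese and 34642 to 39470 in lean rats of the 13. Of 9 mural cell markers 3 were positive, with sums of 31021 to 46655 in obese and 35390 to 43266 in lean rats, and Cnn1 lay below the filter. Of 10 fibroblast and progenitor markers 6 were positive, with sums of 297493 to 466228 in obese and 317767 to 473023 in lean rats, and Fn1 had 0.51 ± 0.15, Gsn -0.35 ± 0.23 and Dpp4 -0.17 ± 0.16 (SE; limma adjusted p = 0.1, 0.439 and 0.606). None of these 3 lists had a member that passed. Of the endothelial genes, Esam had 0.31 ± 0.11, Pecam1 0.18 ± 0.12 and Egfl7 -0.26 ± 0.18 (SE; limma adjusted p = 0.154, 0.468 and 0.475). Of the mural genes, Pdgfrb had -1.04 ± 0.36, Kcnj8 -0.24 ± 0.13 and Myh11 -0.17 ± 0.15 (SE; limma adjusted p = 0.15, 0.347 and 0.572). The Pdgfrb signal was dim, at 554 ± 339 in the 6 obese and 1157 ± 426 in the 7 lean rats (SD), where the filter lay at 531. It came from the brightest of 3 probe sets.

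Of 10 fat cell markers 5 were positive, with sums of 273251 to 500277 in obese and 291724 to 403664 in lean rats, and 0 passed; Lep had 0.79 ± 0.19, Cd36 0.49 ± 0.16 and Acvr1c -0.43 ± 0.23 (SE; limma adjusted p = 0.0646, 0.141 and 0.344). Of 8 mesothelial markers 1 was positive and 1 passed, Calb2, which fell by 0.83 (limma adjusted p = 0.0467; 0.290% of probe sets were called lower), with sums of 16801 to 32396 in obese and 14661 to 38627 in lean rats. Of 4 Schwann cell and 3 skeletal muscle markers tested, 0 were positive and 0 passed, and of the epididymal epithelium markers 0 were above the filter. The part of these cells in the results for the 10 genes was not tested.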

How the data were processed

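Epididymal fat RNA of 7 obese and 8 lean rats was hybridised to 1 array each. The deposited intensity values were MAS5 signals, per the submitters' processing notes; the version, background settings and scaling target are not given in the sources used here. Each array had a 2% trimmed mean between 1500.34 and 1500.42, so the signals were used as scaled. Subtraction of mismatch probes by MAS5 makes dim values noisy. The number of arrays limits the precision.

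Signals were analysed as log2(signal + 79.9); the added 79.9 is their 10th percentile over all arrays. The 57 control probe sets were left out, and the 18625 probe sets with a mean above the 40th percentile were kept. Groups were compared with limma 3.58.1 (lmFit and eBayes) in R 4.3.3, obese minus lean, with all 15 arrays and with 13. Fold changes on this scale understate those of dim genes. Names came from the platform annotation, updated by Entrez ID. It gave a single gene for 20826 probe sets, of which 20758 matched a current ID, more than 1 for 436 and none for 9780. Each gene was represented by the brightest of its probe sets. Named were all members; of each other list up to 5 genes past the threshold with 13 arrays, or else up to 3 with the smallest p; the 5 genes most like each group mean; and, outside this rule and with their values seen, Adipoq, Plin1 and Fabp4 as a check of the tissue. The members, the lists and the leaving out of 2 arrays were chosen with earlier results of these data known. On simulated data the limma fit was tested first. Correlations and differences between genes or probe sets used exact permutation (Python 3.11.15, numpy 2.4.6), and figures matplotlib 3.10.9. Alternatives were the pseudocount, the filter, the scaling, a block for the rat number, array weights, the variance prior, the Gapdh ratio, each rat left out and the probe set rule; using a gene's other probe set, and the exact tests of differences between probe sets or genes, were added after seeing the data.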

Additional observations from a re-analysis of the deposited data

Results flagged for a closer look

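The brighter Col15a1 probe set had a signal of 28727 in obese rat 5, against 23179 in the nearest of the other obese rats. The gap was 0.5999 of the range of the 7 obese rats on the log2 scale, above the critical value of 0.568. It was the 1 such value in 40 checks, 20 groups of rats each with 15 and 13 arrays, where chance alone would give about 5 in 100.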

How the results depend on the processing

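With 13 arrays the count of called members was 1, by Col6a2. It was 2, with Col6a1 added, at a pseudocount of 291.2, with the filter at the 60th percentile, with median centring, with array weights, with trend and robust, with averaged probe sets and with 1 probe set per gene. It was 0 without a filter (Col6a2 limma adjusted p = 0.0962), with quantile normalization (0.055), with the replicate block (0.221) and with a Gapdh ratio term (0.183). The cause was not tested. With 13 arrays the block compares only rats whose number occurs in both groups, so obese rat 7 and lean rats 1 and 4 do not inform its difference. Leaving out 1 more rat gave counts from 0 to 2, 2 without obese rat 3. With 15 arrays the count was 0 in the 12 other settings and from 0 to 2 with 1 rat left out, where 2 came without obese rat 1 alone. Probe sets called among all with 13 arrays numbered 189, against 46 without a filter, 389 with median centring, 3 with the replicate block and 14 with the Gapdh ratio. Median centring moved the median of all probe sets from -0.04 to 0.07 with 13 arrays.

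The type VI median ran from 0.37 to 0.59 over the 12 other settings and from 0.44 to 0.53 with 1 rat left out (13 arrays), and from 0.32 to 0.51 and 0.38 to 0.47 with 15. The basement membrane median of 0.10 moved to 0.24 with averaged probe sets (13 arrays). No basement membrane gene passed under any setting run, and the type VI genes kept their sign in all of them.

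Genes near 0 turned sign. Under median centring Col15a1 had 0.091 and Lamb1 0.0021 with 15 arrays, and Col15a1 had 0.11 and Nid1 0.12 with 13. Under quantile normalization Col4a2 had -0.013 and Nid1 -0.089 with 15, and Col4a2 -0.028 with 13. Under the replicate block Nid1 had -0.022 with 15 and 0.015 with 13, and with array weights -0.024 with 15. With the Gapdh ratio Col15a1 had 0.040 and Nid1 -0.049 with 15, and Col15a1 0.054 with 13. By averaged probe sets Col15a1 had 0.24 with 15 arrays and 0.27 with 13, and Nid1 0.12 with 13. By the other probe set Col15a1 had 0.49 with 15 and 0.56 with 13, and Nid1 0.24 with 13. With 1 rat left out, Col15a1 ran from -0.071 to 0.031, Nid1 from -0.063 to 0.025 and Col4a2 from -0.033 to 0.20 with 15, and from -0.084 to 0.039, -0.074 to 0.030 and -0.061 to 0.22 with 13.

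Little pairing of the rats by number was seen. Over 7 shared numbers the deviations of same-numbered rats correlated from -0.11 to 0.24, 2 above 0.1, and 1 obese rat matched its own number best. Obese rat 1 matched its near-identical lean rat 7 best. So few pairs cannot exclude a pairing.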
